A study of Mus musculus with 9 samples.

Results

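The small RNA of extracellular vesicles (EVs) from bronchoalveolar lavage fluid (BALF) was compared between mice that breathed 2 ppm ozone (O3) and mice that breathed filtered air (FA). The comparison takes 6 of the 9 sequenced pools of the series, 3 after 2 ppm O3 and 3 after FA. All mice were female C57BL/6J, 8 to 10 weeks old, and were kept for 3 h in a whole body inhalation chamber. Each FA pool held BALF from 4 mice and each 2 ppm O3 pool BALF from 3 mice, so pool size and exposure cannot be told apart. The 3 pools after 1 ppm O3 were used only to share an estimate of the spread between pools and to set the median-of-ratios scaling explained below. Of the 402 mature miRNAs left once isomiRs were set aside and the genomic copies of a miRNA were averaged, 216 had a mean above 50 RPMMM over the 6 pools. RPMMM is the number of reads of an entry scaled to a fixed total of reads mapped to miRNAs, the same in each pool. These 216 miRNAs are the ones described below.

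A miRNA is cut from a hairpin, whose arms are named 5p and 3p, and pairs with messenger RNAs mainly through its seed, the bases that follow the first. Cells of the airway wall and the airspace release part of their miRNAs inside EVs, so the miRNAs of BALF EVs come from a mixture of epithelial cells, leukocytes and other cells. Inhaled O3 is known to injure the airway epithelium and to draw leukocytes into the airspace.

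Sequences are shown for the miRNAs on which the comparison turns, ordered by direction and by shared seed, with the seed (bases 2 to 8) in capitals. They are the mature sequences of RefSeq (GRCm38.p6), which held 186 of the 216 miRNAs tested. The miRNAs that were higher after 2 ppm O3 had the following sequences, with miR-107-3p, miR-29b-3p and miR-92b-3p next to relatives of the same seed:
miR-2137: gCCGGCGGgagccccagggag
miR-5126: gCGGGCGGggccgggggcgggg
miR-1843-3p: uCUGAUCGuucaccuccauaca
miR-126-3p: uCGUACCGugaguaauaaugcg
miR-22-3p: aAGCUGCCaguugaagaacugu
miR-24-3p: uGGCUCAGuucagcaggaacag
miR-107-3p: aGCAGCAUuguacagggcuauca
miR-103-3p: aGCAGCAUuguacagggcuauga
miR-29b-3p: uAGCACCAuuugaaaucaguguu
miR-29c-3p: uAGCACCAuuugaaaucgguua
miR-29a-3p: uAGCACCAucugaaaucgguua
miR-92b-3p: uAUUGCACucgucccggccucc
miR-92a-3p: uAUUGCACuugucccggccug
The miRNAs that were lower included 3 members of the let-7 seed group, the miR-125 and miR-351 group, miR-99a-5p, miR-100-5p and miRNAs with other seeds. Of the latter, miR-501-3p, miR-34a-5p and miR-200a-5p share seeds with miR-500-3p, miR-449a-5p and miR-200b-5p, which are not shown. Also shown is miR-99b-5p, which has the seed of miR-100-5p and was not called on either scale:
let-7e-5p: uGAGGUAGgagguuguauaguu
let-7d-5p: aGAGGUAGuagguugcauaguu
let-7f-5p: uGAGGUAGuagauuguauaguu
miR-351-5p: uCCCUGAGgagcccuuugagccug
miR-125b-5p: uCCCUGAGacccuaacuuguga
miR-125a-5p: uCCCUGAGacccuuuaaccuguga
miR-100-5p: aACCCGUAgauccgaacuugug
miR-99a-5p: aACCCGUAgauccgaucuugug
miR-99b-5p: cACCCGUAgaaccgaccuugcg
miR-501-3p: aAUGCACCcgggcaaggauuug
miR-351-3p: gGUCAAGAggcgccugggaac
miR-450a-5p: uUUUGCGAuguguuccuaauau
miR-1298-5p: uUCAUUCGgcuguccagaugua
miR-34a-5p: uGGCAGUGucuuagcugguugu
miR-200a-5p: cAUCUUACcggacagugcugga
miR-142-3p: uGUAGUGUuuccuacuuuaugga

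The make-up of the libraries differed between the exposures before any single miRNA was compared. The entries of miR-2137 took 0.266% ± 0.324 (SD, n = 3 pools) of the total in FA and 19.5% ± 0.807 after 2 ppm O3. Those of miR-5115 and of the hairpins miR-5109, miR-5105 and miR-5102, isomiRs included, took 0.322% ± 0.0721 and 25.7% ± 2.46. All other entries therefore shared 99.4% ± 0.294 of the total in FA and 54.8% ± 3.17 after 2 ppm O3. The depth differed as well. From the steps between low values, the FA pools were estimated to hold 535547 to 773266 miRNA reads and the 2 ppm O3 pools 281357 to 300820 reads, a ratio of 0.419 (p = 0.1 by a two-sided exact permutation test, the lowest p possible with 3 pools against 3). The lowest value above 0 was 13.6 to 18.9 RPMMM in the FA pools and 34.3 to 37.3 RPMMM after 2 ppm O3. The depth estimate took this value as about 10 reads in each pool, so the ratio of depths largely follows the lowest values. Between 4 and 8 of the 216 miRNAs were at 0 in an FA pool, and between 9 and 22 in a 2 ppm O3 pool. A value of 0 after 2 ppm O3 thus stands for a higher limit than a value of 0 in FA.

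Because RPMMM are shares of a total, each comparison is given on 2 scales, the deposited values and the same values after median-of-ratios scaling. The latter divides each pool by the median ratio of its miRNAs to their mean over the pools, taken from the 167 miRNAs above 0 in all 9 pools. On the deposited scale the median log2 fold change of the 216 miRNAs was -0.91, and 169 (78.2%) were below 0. With median-of-ratios scaling the median was -0.07, and 115 (53.2%) were below 0. A miRNA was called at an adjusted p below 0.05 from limma and a fold change of at least 2. On the deposited scale 85 of 216 were called (39.4%), of which 13 were higher (6.02%) and 72 were lower (33.3%). With median-of-ratios scaling 36 were called (16.7%), of which 24 were higher (11.1%) and 12 were lower (5.56%). All 13 miRNAs called higher on the deposited scale were also called higher with median-of-ratios scaling. Of the 72 called lower, 12 were also called lower with median-of-ratios scaling and the other 60 were not called. That scaling added 11 higher calls, and no miRNA was called in opposite directions. The pools of the exposures did not overlap for 139 miRNAs (64.4%) on the deposited scale and for 49.1% of miRNAs with median-of-ratios scaling. The p-values measure the spread between pools, each of which is a mixture of several mice.

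**Figure D1:**
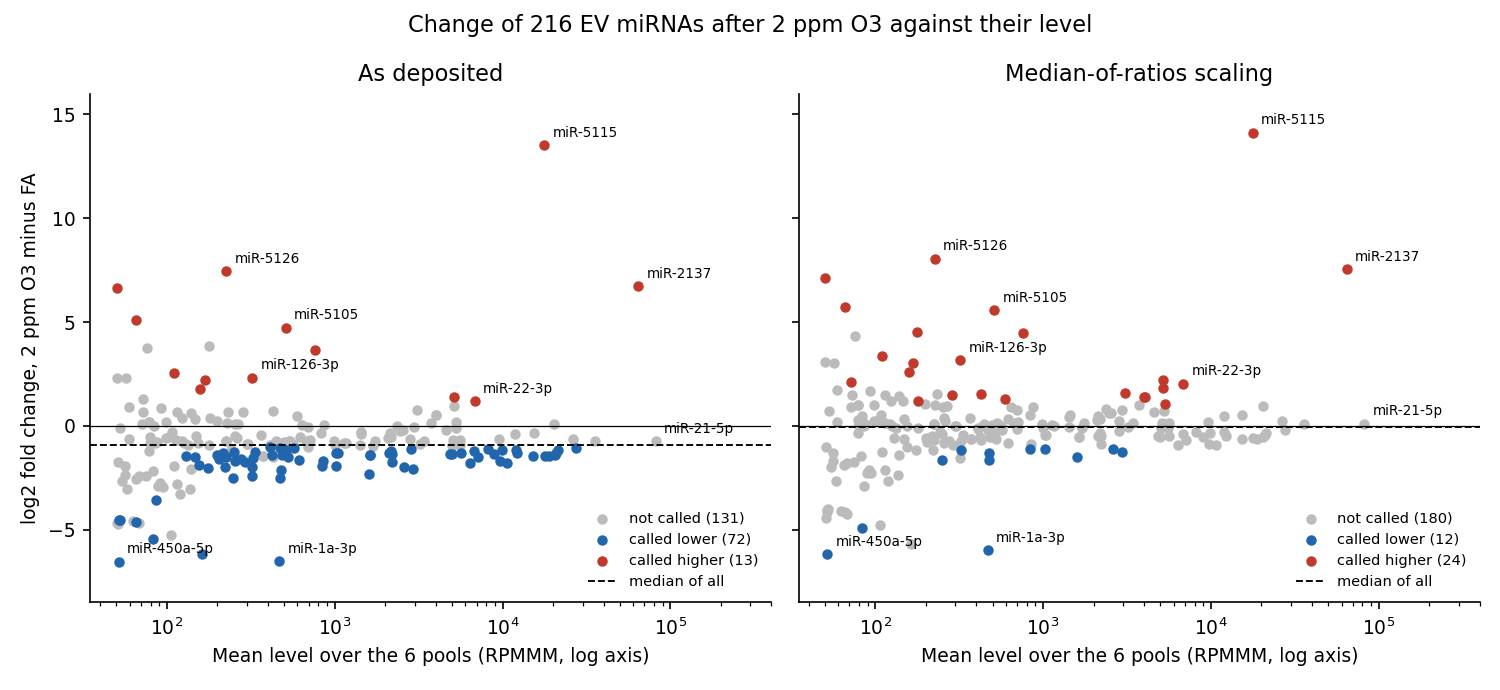
Each point is 1 of the 216 miRNAs, with its mean level over the 6 pools (RPMMM, log axis) and its log2 fold change, 2 ppm O3 minus FA, as deposited on the left and after median-of-ratios scaling on the right. Red points are called higher, blue points called lower, and the dashed line is the median of all, which lies at -0.91 as deposited and at -0.07 after scaling.

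The largest rises were of miR-5115, miR-5126 and miR-2137. miR-5115 was at 0, 25.9 and 0 RPMMM in the 3 FA pools and at 37525, 40257 and 28379 RPMMM after 2 ppm O3. Its log2 fold change depends on the pseudocount, since it was listed at 0 in 2 FA pools (log2 fold change 13.51 ± 1.06 SE, adjusted p = 2.67e-06 from limma). miR-2137, whose hairpin lies in an intron of Zfp185 (chromosome X, 70237418 to 70237483, plus strand, mm9), was at 4714, 641 and 579.8 RPMMM in FA. After 2 ppm O3 it was at 128260.0, 129430.0 and 122935 RPMMM, above every other miRNA in each of the 3 pools (log2 fold change 6.72 ± 0.64 SE, adjusted p = 8.32e-06 from limma). The FA pools themselves were spread for this miRNA, with pool 1 far above the others.

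The hairpins miR-5105, miR-5109 and miR-5102 rose with them, and miR-5126 as well. Levels of miR-5105 were 41.5, 40.1 and 28.0 RPMMM in FA and 1045, 1026 and 888 RPMMM after 2 ppm O3 (log2 fold change 4.73 ± 0.34 SE, adjusted p = 2.20e-06 from limma). For miR-5109 they were 70.0, 165 and 121 RPMMM in FA and 1415, 1387 and 1414 RPMMM after 2 ppm O3 (log2 fold change 3.64 ± 0.50 SE, adjusted p = 1.67e-04 from limma). The pools of the exposures lay far apart for both. miR-5102 was at 0, 0 and 39.2 RPMMM in FA and at 119, 132.8 and 102 RPMMM after 2 ppm O3. It lost its call on the deposited scale when 2 ppm O3 pool 1 or pool 2 was left out. With median-of-ratios scaling it lost its call only without 2 ppm O3 pool 2. miR-5126, with a mature sequence made only of G and C (a GC content of 100%), was at 15.6, 0 and 0 RPMMM in FA and at 484, 451.2 and 400.1 RPMMM after 2 ppm O3 (log2 fold change 7.45 ± 1.20 SE, adjusted p = 4.56e-04 from limma). The mature miR-2137 has a GC content of 85.7%, and the median of the 186 miRNAs with a sequence was 47.6%. The names miR-5115, miR-5109, miR-5105 and miR-5102 had no entry among the RefSeq sequences used.

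miR-1843-3p was listed at 0 in all 3 FA pools and at 73.1, 114 and 114 RPMMM after 2 ppm O3. It was called higher on both scales, and its call was lost when 2 ppm O3 pool 1 or pool 2 was left out.

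The other 6 higher miRNAs are conserved among mammals. miR-126, from a hairpin within Egfl7 (chromosome 2, 26446877 to 26446949, plus strand, mm9), is the miRNA most typical of endothelial cells. Its 3p arm was at 51.9, 113 and 190.5 RPMMM in FA and at 532, 577 and 465 RPMMM after 2 ppm O3 (log2 fold change 2.32 ± 0.56 SE, adjusted p = 0.00537 from limma). The 5p arm was at 29.8, 18.1 and 54.1 RPMMM in FA and 169, 183.1 and 202 RPMMM after 2 ppm O3 (log2 fold change 2.54 ± 0.57 SE, adjusted p = 0.00343 from limma). Each of the 2 ppm O3 pools was above each FA pool for both arms. Of 61 tested pairs of a 5p and a 3p arm, only that of miR-126 had both arms called higher on the deposited scale.

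miR-22-3p, a broadly expressed regulator of growth and metabolism, and miR-24-3p, of the miR-23a, miR-27a and miR-24 cluster, were the most abundant of these 6. Levels of miR-22-3p were 3825, 4390.3 and 4257 RPMMM in FA and 8936, 9491 and 10102 RPMMM after 2 ppm O3 (log2 fold change 1.19 ± 0.0972 SE, adjusted p = 3.00e-06 from limma). Those of miR-24-3p were 2900.1, 2689 and 2941 RPMMM in FA and 7368, 8702 and 6401 RPMMM after 2 ppm O3 (log2 fold change 1.39 ± 0.12 SE, adjusted p = 5.15e-06 from limma). Both were called on both scales with each pool left out in turn. With median-of-ratios scaling their log2 fold changes were 2.04 and 2.23.

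miR-29b-3p, of a family that represses collagens and other matrix genes, was at 46.9 and 58.8 RPMMM in FA pools 1 and 2, higher in FA pool 3 (mean 75.9 RPMMM ± 40.4, SD, n = 3) and at 270.5, 201 and 251 RPMMM after 2 ppm O3 (log2 fold change 1.76 ± 0.52 SE, adjusted p = 0.0149 from limma). miR-107-3p, which lies in an intron of Pank1 (chromosome 19, 34895177 to 34895263, minus strand, mm9) and is known for roles in metabolism, was at 92.9, 15.5 and 117 RPMMM in FA and 276, 266 and 239 RPMMM after 2 ppm O3 (log2 fold change 2.20 ± 0.77 SE, adjusted p = 0.0326 from limma). Its call on the deposited scale was lost without FA pool 2, which was the lowest, where the log2 fold change was 1.31, and without any of the 2 ppm O3 pools.

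The 11 further miRNAs were called higher only after median-of-ratios scaling, and each of them had a log2 fold change above 0 on the deposited scale too. They were miR-34b-3p, miR-361-5p, miR-1839-5p, miR-375-3p, miR-423-5p, miR-872-5p, miR-29c-3p, miR-423-3p, miR-92b-3p, miR-744-5p and miR-874-3p. miR-92b-3p was at 3336, 3352 and 3783 RPMMM in FA and at 8162, 5775 and 6568 RPMMM after 2 ppm O3, with a log2 fold change of 1.80 ± 0.17 (SE) after scaling and an adjusted p of 3.00e-05 from limma. The deposited log2 fold change of 0.96 was just under the fold threshold. miR-375-3p, known from neuroendocrine and secretory epithelial cells, was at 3062, 3148 and 3564 RPMMM in FA and 4747, 4841 and 4582 RPMMM after 2 ppm O3, with a log2 fold change of 1.38 ± 0.13 (SE) after scaling and an adjusted p of 2.49e-05 from limma. The pools did not overlap for either miRNA on the deposited scale. miR-744-5p was at 72.6, 16.5 and 49.5 RPMMM in FA and 97.2, 96.7 and 96.8 RPMMM after 2 ppm O3, and its call after scaling was lost without FA pool 2 and without any of the 2 ppm O3 pools. Both arms of miR-423 were called, the 3p arm at 2091, 2169 and 2654 RPMMM in FA and 3368, 4125 and 4134 RPMMM after 2 ppm O3 and the 5p arm at 3475, 3109 and 3225 RPMMM in FA and 4729, 4243 and 5363 RPMMM after 2 ppm O3.

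**Figure D2:**
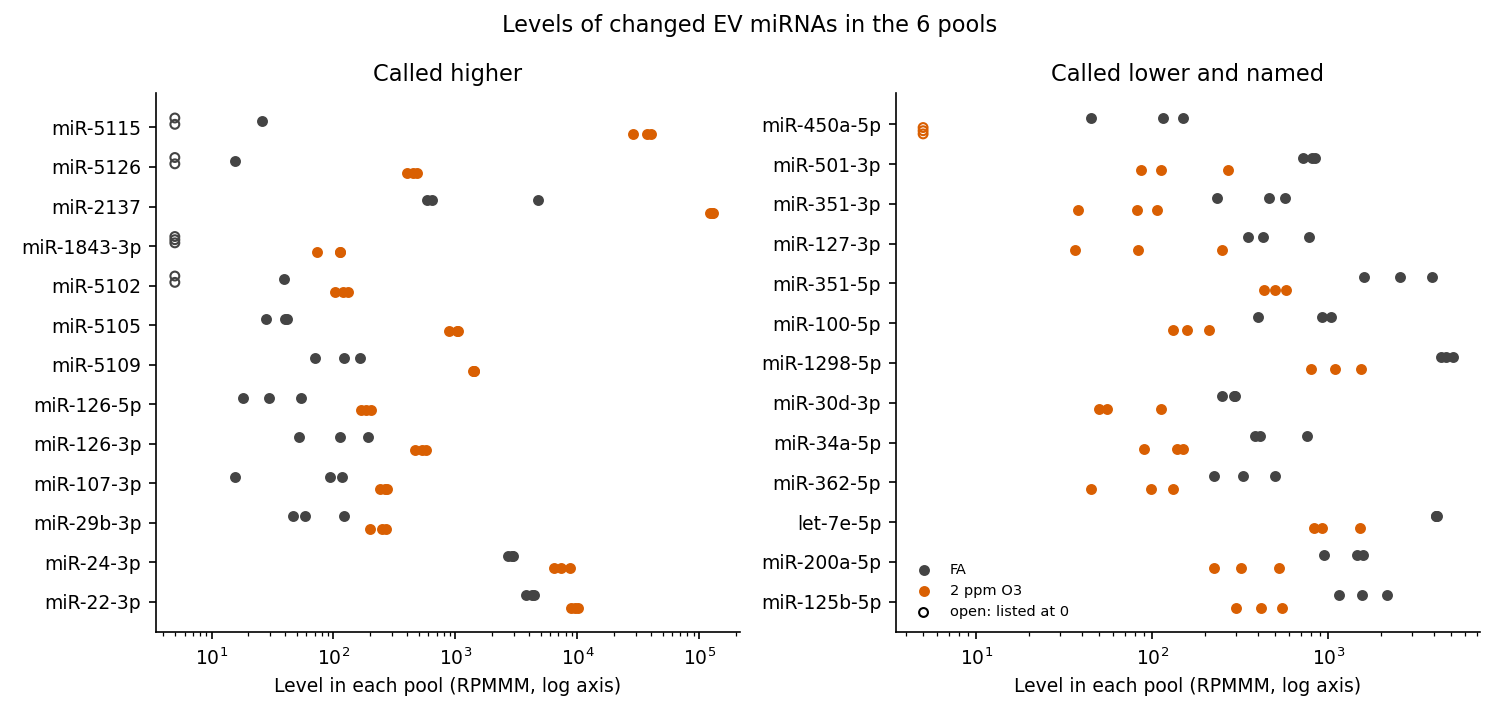
Level of each miRNA in the 3 FA pools (grey) and the 3 pools after 2 ppm O3 (orange), in RPMMM on a log axis, for the 13 miRNAs called higher on the deposited scale (left) and 13 of those called lower (right). Open points are pools where a miRNA was listed at 0. The 26 miRNAs drawn were picked by their calls in these same pools. Their groups of pools do not overlap, as for 139 of all 216 miRNAs (64.4%) on the deposited scale.

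Of the 12 miRNAs called lower on both scales, miR-450a-5p, miR-501-3p, miR-351-5p, miR-1298-5p and let-7e-5p kept their call on both scales with each pool left out in turn, and the other 7 lost it after scaling with at least 1 pool left out. Several came from hairpin groups on chromosome X. The hairpins of miR-322, miR-351, miR-542 and miR-450 lie together (chromosome X, 50401174 to 50407526, minus strand, mm9) and are known for high levels in growing and differentiating cells. Of their 6 arms tested, 4 were called lower on the deposited scale and 3 with median-of-ratios scaling, next to 33.3% and 5.56% of all 216 miRNAs. The median log2 fold changes were -2.42 and -1.67. miR-351-5p, which carries the seed of the miR-125 family, was at 1601, 3903 and 2553 RPMMM in FA and at 499, 433.1 and 578 RPMMM after 2 ppm O3 (log2 fold change -2.33 ± 0.33 SE, adjusted p = 1.84e-04 from limma). It had a log2 fold change of -1.49 ± 0.34 (SE) after scaling and an adjusted p of 0.00760 from limma. miR-351-3p was at 463, 570.3 and 233 RPMMM in FA and 106.3, 38.0 and 81.7 RPMMM after 2 ppm O3 (log2 fold change -2.50 ± 0.57 SE, adjusted p = 0.00370 from limma).

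miR-450a-5p was at 115, 149 and 44.8 RPMMM in FA and listed at 0 in all 3 pools after 2 ppm O3. It enters the medians of its hairpin group by its fitted value, and no fold is given for it, since the lowest values above 0 in those pools were 34.3 to 37.3 RPMMM. When values below 40 RPMMM were set to 40, a setting chosen with the data already seen, its log2 fold change with median-of-ratios scaling was -0.35 and it was not called. The scaled call of miR-450a-5p was also lost with only the 6 pools of FA and 2 ppm O3 in the model (adjusted p = 0.0588 from limma). miR-322-3p of the same hairpin group was at 309, 268 and 368 RPMMM in FA and 226, 211 and 181.2 RPMMM after 2 ppm O3 and was not called, with log2 fold change -0.60 ± 0.28 SE, adjusted p = 0.0896 from limma. After scaling its value was 0.24, above 0, while that of miR-351-5p was -1.49.

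The second group on that chromosome holds miR-500, miR-501, miR-362 and miR-532 in introns of Clcn5 (chromosome X, 6814809 to 6825623, minus strand, mm9). miR-501-3p was at 844, 720.3 and 805 RPMMM in FA and at 113, 86.4 and 269.9 RPMMM after 2 ppm O3 (log2 fold change -2.50 ± 0.42 SE, adjusted p = 5.59e-04 from limma). miR-362-5p was at 327, 496.6 and 226 RPMMM in FA and 98.03, 44.9 and 131 RPMMM after 2 ppm O3 (log2 fold change -1.98 ± 0.49 SE, adjusted p = 0.00628 from limma), and was not called after scaling, where its log2 fold change was -1.14. Elsewhere on the chromosome, miR-1298-5p, from an intron of Htr2c (chromosome X, 143499448 to 143499545, plus strand, mm9), was at 4684, 5131 and 4377 RPMMM in FA and at 1097, 802 and 1545 RPMMM after 2 ppm O3 (log2 fold change -2.09 ± 0.22 SE, adjusted p = 1.64e-05 from limma). It was called lower on both scales with each pool left out in turn. Of the 189 miRNAs whose hairpins all had a position in mm9, 27 came from chromosome X alone, 14 of them called lower and 1 higher, with a median log2 fold change of -1.37. The 162 from autosomes had a median of -0.89, with 49 called lower and 5 higher. With median-of-ratios scaling 5 of the 27 and 3 of the 162 were called lower, and 2 and 14 were called higher. The miRNAs of a cluster share a transcript, so these counts are not of independent items.

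The miRNAs lower on both scales also included miR-34a-5p and single members of the cell type lists given below. After scaling, 7 of the 8 epithelial and 3 of the 4 leukocyte miRNAs tested were not called, with list medians of -0.40 and 0.27. miR-34a-5p, which is induced by p53 and slows the cell cycle, was at 386, 762 and 408.9 RPMMM in FA and at 149.5, 90.1 and 139 RPMMM after 2 ppm O3 (log2 fold change -1.99 ± 0.38 SE, adjusted p = 0.00133 from limma). miR-200a-5p, of the epithelial miR-200 family, was at 950.3, 1455 and 1570.4 RPMMM in FA and 319, 225 and 522 RPMMM after 2 ppm O3 (log2 fold change -1.95 ± 0.36 SE, adjusted p = 0.00108 from limma). After scaling, the calls of miR-34a-5p and miR-200a-5p were each kept in 2 of the 6 fits with a pool left out. miR-142-3p, typical of leukocytes, was at 123, 182.3 and 151 RPMMM in FA and at 0, 41.5 and 0 RPMMM after 2 ppm O3, and was called lower on both scales. Its call after scaling was kept in 1 of the 6 fits with a pool left out. The muscle miRNA miR-1a-3p was at 70.0, 419 and 2231 RPMMM in FA and at 0, 89.3 and 0 RPMMM after 2 ppm O3. FA pool 3 was far above the others for miR-1a-3p, and FA pool 1 lay below 1 of the 2 ppm O3 pools.

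The let-7 family, which holds back proliferation and growth factor genes and is abundant in differentiated lung cells, had the most members tested of the families listed, 16, and the highest summed level in FA. All 9 miRNAs with its seed, the 8 let-7 5p arms and miR-98-5p, were called lower on the deposited scale, with log2 fold changes from -1.96 to -1.30 and a median of -1.43. With median-of-ratios scaling the values ran from -1.12 to -0.46, with a median of -0.59, and only let-7e-5p was still called. let-7e-5p was at 4112, 4099 and 4130.4 RPMMM in FA and at 833, 925 and 1518 RPMMM after 2 ppm O3 (log2 fold change -1.96 ± 0.20 SE, adjusted p = 1.59e-05 from limma). let-7f-5p, the most abundant of them, was at 31704, 29055 and 28375 RPMMM in FA and at 11341, 11621 and 13225 RPMMM after 2 ppm O3 (log2 fold change -1.30 ± 0.0884 SE, adjusted p = 1.85e-06 from limma). It had a log2 fold change of -0.46 ± 0.0711 (SE) after scaling and an adjusted p of 7.52e-04 from limma, under the fold threshold. All 19 let-7 and miR-98 arms in the data, also those not tested, summed to 154613 to 169462 RPMMM in the FA pools. After 2 ppm O3 they summed to 55056 to 66008 RPMMM, a ratio of 0.373, which was 0.666 after scaling. Of the 16 arms tested, 14 were called lower and none higher on the deposited scale, next to 33.3% and 6.02% of all 216 miRNAs. The arm let-7f-1-3p went apart from the rest, at 0, 210.2 and 0 RPMMM in FA and 86.4, 51.8 and 106.6 RPMMM after 2 ppm O3, and was not called. The rows of let-7a-1-3p and let-7c-2-3p hold the same values and cannot be told apart, and both are counted in the sum and among the 14.

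Several hairpins of the miR-10, miR-99, miR-100 and miR-125 family lie next to let-7 hairpins, and the family is known from development and differentiation. Of its 12 arms, 5 were called lower as deposited and 2 after scaling, next to 33.3% and 5.56% of all 216 miRNAs, and the medians were -1.77 and -0.93. Its summed level was 30428 to 42555 RPMMM in the FA pools and 11413 to 13056 RPMMM after 2 ppm O3, a ratio of 0.331, or 0.595 after scaling. The 3 miRNAs with the seed of miR-125 were all called lower as deposited, and miR-125b-5p and miR-351-5p also after scaling. miR-125b-5p was at 1149, 2152 and 1559.6 RPMMM in FA and at 418, 298 and 543.4 RPMMM after 2 ppm O3 (log2 fold change -1.94 ± 0.29 SE, adjusted p = 2.84e-04 from limma). miR-125a-5p, the most abundant of the 3, was at 13615, 19319 and 16668 RPMMM in FA and 5035, 4101 and 5268 RPMMM after 2 ppm O3 (log2 fold change -1.78 ± 0.14 SE, adjusted p = 2.68e-06 from limma). Of the miRNAs with the miR-99 seed, miR-100-5p was at 400.0, 926 and 1038 RPMMM in FA and at 211, 131 and 158 RPMMM after 2 ppm O3 (log2 fold change -2.15 ± 0.42 SE, adjusted p = 0.00163 from limma). miR-99b-5p, with the same seed, was at 4791, 4083 and 3882 RPMMM in FA and 2602, 2584 and 2582 RPMMM after 2 ppm O3 and was not called, with a log2 fold change of -0.71 as deposited and 0.13 after scaling.

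The following families had no member called after scaling. Of all 216 miRNAs, 33.3% were called lower as deposited and 5.56% after scaling, and the counts of miR-30 and miR-181 as deposited are near that share. All 4 arms of miR-26 were called lower as deposited and none after scaling, with medians of -1.35 and -0.51. miR-26a-5p was at 38249.7, 37136 and 36093 RPMMM in FA and at 18063, 16855 and 18658 RPMMM after 2 ppm O3 (log2 fold change -1.06 ± 0.0787 SE, adjusted p = 2.52e-06 from limma). The miR-30 family, which is abundant in epithelium, had 4 of 10 arms called lower as deposited and none after scaling. Its summed level went from 102614 to 127379 RPMMM in FA to 61419 to 67806 RPMMM after 2 ppm O3, a ratio of 0.559, and the ratio was 1.00 after scaling. miR-30d-5p was at 52341, 44303 and 37794 RPMMM in FA and 26786, 26322 and 26549 RPMMM after 2 ppm O3. miR-30a-5p was at 34270.1, 31340.3 and 30719 RPMMM in FA and 19524, 20526 and 22519 RPMMM after 2 ppm O3. All 2 ppm O3 pools were below the FA pools for these most abundant members. miR-30d-5p had a log2 fold change of -0.74 as deposited and 0.10 after scaling, and miR-30a-5p one of -0.62 and 0.22. The sign of both thus turns with the scaling. The other arm, miR-30d-3p, was at 249, 294 and 291 RPMMM in FA and 113, 55.3 and 49.7 RPMMM after 2 ppm O3 (log2 fold change -2.02 ± 0.49 SE, adjusted p = 0.00528 from limma), and had a log2 fold change of -1.18 ± 0.50 (SE) after scaling and an adjusted p of 0.0965 from limma. The miR-183, miR-96 and miR-182 cluster, known from sensory organs, had no call in 3 tested, with medians of -0.82 and 0.02. The miR-181 family had 1 of 3 called lower as deposited, miR-181b-5p, and none after scaling. miR-378-3p, from a gene of energy metabolism, was at 23319.5, 30205 and 35337 RPMMM in FA and 11955, 13254 and 13913 RPMMM after 2 ppm O3 (log2 fold change -1.17 ± 0.18 SE, adjusted p = 3.70e-04 from limma), and had a log2 fold change of -0.32 ± 0.19 (SE) after scaling and an adjusted p of 0.225 from limma. The miR-191 and miR-425 cluster had miR-191-5p called lower as deposited and none after scaling.

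The remaining families each had at most 2 members called on either scale. Of all 216 miRNAs, 33.3% were called lower and 6.02% higher as deposited, and 5.56% and 11.1% after scaling. The miR-23, miR-27 and miR-24 family summed to 47206 to 51598 RPMMM in FA and to 44161 to 51461 RPMMM after 2 ppm O3, with overlapping pools, and to 1.72 times the FA level after scaling without overlap. Of its 9 arms, miR-24-3p was called higher on both scales and miR-23b-5p lower as deposited. miR-23a-3p was at 19557, 19304 and 20263 RPMMM in FA and at 22095, 17911 and 23336 RPMMM after 2 ppm O3, with a log2 fold change of 0.09 as deposited and 0.93 (adjusted p = 4.23e-05 from limma) after scaling, just under the fold threshold. The miR-17-92 cluster and its paralogues, which promote proliferation, had 2 of 10 arms called lower as deposited, both from miR-106b, and miR-92b-3p called higher after scaling. The 3 miRNAs with the miR-29 seed were not alike. miR-29b-3p was called higher on both scales, miR-29c-3p after scaling, and miR-29a-3p, by far the most abundant, on neither, with log2 fold changes of -0.34 and 0.50. Of the proliferation-linked pair miR-221 and miR-222, miR-221-3p was called lower as deposited, at 3162, 4168 and 4205 RPMMM in FA and 1545, 1503 and 2405 RPMMM after 2 ppm O3, and miR-222-3p was not, at 3337, 3419 and 3630.0 RPMMM in FA and 3662, 2754 and 5629.8 RPMMM after 2 ppm O3. Neither was called after scaling, and the deposited call of miR-221-3p was lost without 2 ppm O3 pool 2. The miR-148 and miR-152 family had no call, with medians of 0.05 and 0.89. Of the imprinted Dlk1-Dio3 miRNAs, known for high levels in the embryo, 3 were tested and miR-127-3p was called lower as deposited. It was at 350.1, 424.2 and 779 RPMMM in FA and at 36.6, 82.9 and 249 RPMMM after 2 ppm O3 (log2 fold change -2.40 ± 0.78 SE, adjusted p = 0.0237 from limma), and the call was lost without FA pool 2 or 3 and without 2 ppm O3 pool 1 or 2. The miR-15, miR-16, miR-195 and miR-497 family had no call in 4 tested on either scale, with medians of -0.62 and 0.22.

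**Figure D3:**
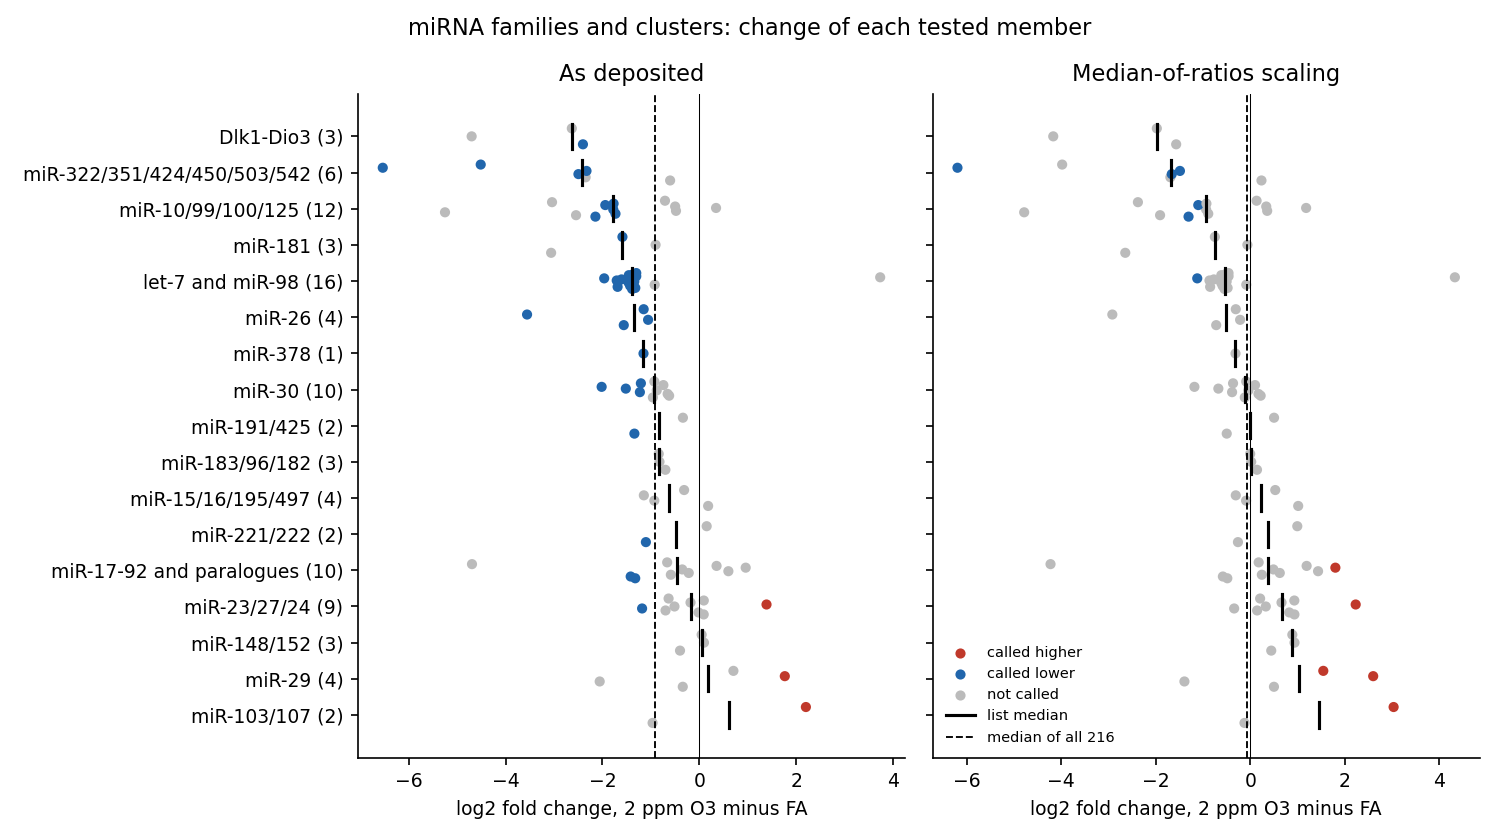
Each point is a tested miRNA of the family or cluster named on the left, with the number tested in brackets, placed by its log2 fold change, 2 ppm O3 minus FA, as deposited (left panel) and after median-of-ratios scaling (right panel). Black bars are family medians and the dashed line is the median of all 216 miRNAs. The let-7 median lies at -1.39 as deposited and -0.54 after scaling. Of its 16 arms, 14 are called lower as deposited and 1 after scaling, next to 33.3% and 5.56% of all 216 miRNAs.

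The lists of miRNAs known for a cell type were read against the share of all miRNAs called, 33.3% lower and 6.02% higher as deposited, and 5.56% and 11.1% after scaling. In pooled EVs, fewer vesicles from a cell type and less of its miRNAs in each vesicle cannot be told apart. The epithelial miR-200 family (miR-200a, miR-200b, miR-200c, miR-141 and miR-429), which keeps cells epithelial by repressing ZEB factors, was present at high level in every pool. Of its 8 arms, 5 were called lower as deposited and 1, miR-200a-5p, after scaling, with medians of -1.24 and -0.40. Its sum was 60863 to 64525 RPMMM in the FA pools and 24848 to 28197 RPMMM after 2 ppm O3, a ratio of 0.420. After scaling the ratio was 0.752, and the pools did not overlap on either scale. miR-200b-3p, the most abundant, was at 27087, 29565 and 31953 RPMMM in FA and at 10637, 10771 and 12503 RPMMM after 2 ppm O3 (log2 fold change -1.39 ± 0.0944 SE, adjusted p = 1.85e-06 from limma), with a log2 fold change of -0.54 ± 0.0818 (SE) after scaling and an adjusted p of 7.26e-04 from limma. The list for barrier epithelium (miR-203, miR-205 and miR-31) had 1 of 4 called lower as deposited, miR-203-3p, and none after scaling, where its sum overlapped between the exposures.

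The ciliated cell list holds miR-34b, miR-34c and miR-449, which promote the formation of motile cilia. Their summed level overlapped between the exposures as deposited, at 9710 to 14963 RPMMM in FA and 10099 to 12004 RPMMM after 2 ppm O3. It was 1.62 times the FA level after scaling, without overlap. miR-34b-3p was at 4583, 4566 and 5726 RPMMM in FA and 6103, 5323 and 5528 RPMMM after 2 ppm O3, with a log2 fold change of 1.04 ± 0.25 (SE) after scaling and an adjusted p of 0.0106 from limma, a call lost without FA pool 1, FA pool 2 or 2 ppm O3 pool 1. miR-449a-3p was called lower as deposited, at 309.9, 350.5 and 241 RPMMM in FA and 0, 0 and 71.0 RPMMM after 2 ppm O3, and miR-449a-5p was not, at 115, 167 and 176 RPMMM in FA and 66.5, 128 and 81.7 RPMMM after 2 ppm O3. The call of miR-449a-3p was kept in 1 of the 6 fits with a pool left out, the one without 2 ppm O3 pool 3.

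No leukocyte miRNA was called higher on either scale. Their sum was 1580 to 2206 RPMMM in FA and 1109 to 1279 RPMMM after 2 ppm O3, a ratio of 0.634, and 1.14 with overlapping pools after scaling. miR-223-3p, typical of neutrophils and other myeloid cells, was at 923, 573 and 666.6 RPMMM in FA and at 685, 639 and 689 RPMMM after 2 ppm O3. Its log2 fold change was -0.08 as deposited and 0.77 (adjusted p = 0.0246 from limma) after scaling. miR-342-3p, found in lymphocytes and other leukocytes, was at 905, 729 and 670.4 RPMMM in FA and 296, 366 and 448 RPMMM after 2 ppm O3 (log2 fold change -1.06 ± 0.26 SE, adjusted p = 0.00624 from limma), and -0.22 after scaling. Both arms of miR-142 were low, with the 5p arm at 69.0, 27.8 and 145.9 RPMMM in FA and 62.5, 62.2 and 103.01 RPMMM after 2 ppm O3 and not called.

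Among the miRNAs induced by inflammation, miR-21-5p was the most abundant miRNA in FA, at 108867, 96805 and 101698 RPMMM, and was at 56468, 66781 and 61125 RPMMM after 2 ppm O3. Its log2 fold change of -0.74 ± 0.0951 (SE) as deposited became 0.10 ± 0.0797 after scaling, so its direction depends on the scale. miR-146b-5p and miR-155-5p were called lower as deposited, with log2 fold changes of -1.32 and -1.28, and neither after scaling. miR-146a-5p was at 697, 793 and 1031 RPMMM in FA and at 577, 997 and 1104 RPMMM after 2 ppm O3, with a log2 fold change of 0.89 ± 0.25 (SE) after scaling and an adjusted p of 0.0201 from limma, under the fold threshold. miR-132-3p had the largest change of this list, with a log2 fold change of 2.32 ± 1.43 (SE) as deposited and 3.04 ± 1.36 after scaling (adjusted p = 0.188 and 0.1104 from limma). It was at 70.0, 0 and 43.0 RPMMM in FA and 113, 48.4 and 67.5 RPMMM after 2 ppm O3, so the pools overlapped. No miRNA of this list was called higher on either scale.

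Endothelial miR-126 summed over its arms was 81.7 to 244.6 RPMMM in FA and 667.8 to 760.1 RPMMM after 2 ppm O3, 4.66 times higher as deposited and 8.41 times after scaling. The list of smooth muscle and mesenchyme (miR-143, miR-145, miR-199 and miR-214) had no call in 6 tested. The rows of its members miR-199a-3p and miR-199b-3p hold the same values and cannot be told apart. miR-143-3p, the most abundant member of the list, was at 4033, 3422 and 9989.7 RPMMM in FA and at 4696, 4787 and 4712 RPMMM after 2 ppm O3. FA pool 3 was the highest for miR-143-3p, for miR-1a-3p and for miR-133a-3p, the latter at 0, 67.9 and 236 RPMMM in FA and listed at 0 in all 3 pools after 2 ppm O3. The call of miR-1a-3p was lost without FA pool 3 on both scales, and after scaling also without FA pool 2 and without 2 ppm O3 pool 1 or 3. Of the erythroid miRNAs, miR-451 was at 372, 438 and 984 RPMMM in FA and 66.5, 218 and 479.5 RPMMM after 2 ppm O3 and was not called. miR-122-5p of hepatocytes was listed at 0 in 1 pool of each exposure and was not called.

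**Figure D4:**
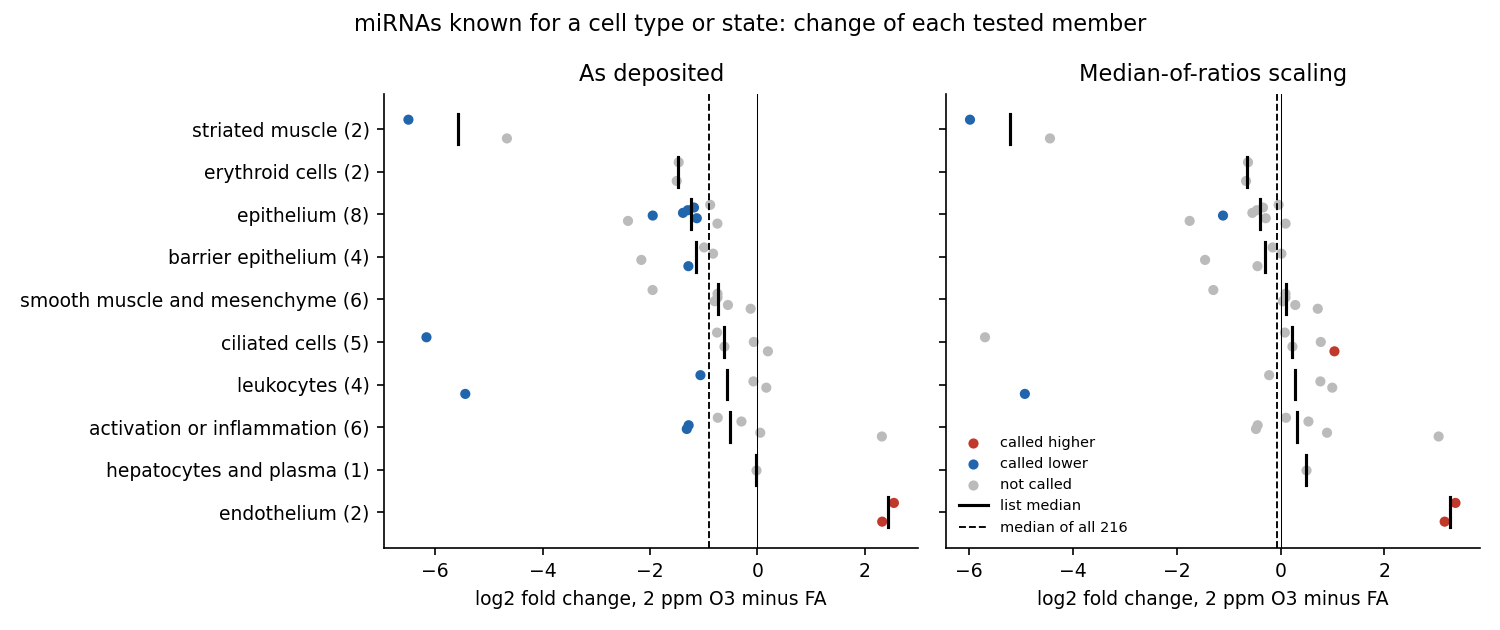
Each point is a tested miRNA known for the cell type or state named on the left, with the number tested in brackets, by its log2 fold change, 2 ppm O3 minus FA, as deposited (left panel) and after median-of-ratios scaling (right panel). Black bars are list medians and the dashed line is the median of all 216 miRNAs. Both arms of the endothelial miR-126 lie above 2, and the epithelial median lies at -1.24 as deposited and -0.40 after scaling.

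Ratios between related miRNAs within a pool do not depend on the total or on any scaling. For 16 such pairs, chosen after the values were seen and given here as a description, the ratios of the exposures did not overlap for 15. The share over all possible pairs was not computed. The ratio of miR-22-3p to the other arm of its hairpin, miR-22-5p, was 6.21, 6.68 and 8.32 in the FA pools and 20.2, 47.4 and 29.3 after 2 ppm O3. That of miR-24-3p to miR-23a-3p, from a common transcript, was 0.148, 0.139 and 0.145 in FA and 0.333, 0.486 and 0.274 after 2 ppm O3. miR-24-3p is also made from a second hairpin, and the values of its copies were averaged here. For the miR-107 pair with a common seed, the ratio of miR-107-3p to miR-103-3p was 0.0438, 0.00758 and 0.0451 in FA and 0.253, 0.223 and 0.205 after 2 ppm O3. In the same way miR-29b-3p to miR-29a-3p went from a mean of 0.00436 to 0.0178, a 4.09-fold higher ratio, and miR-29c-3p to miR-29a-3p from 0.0191 to 0.0394.

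Of the inducible pairs, the mean ratio of miR-146a-5p to miR-146b-5p went from 0.106 to 0.277 and that of miR-222-3p to miR-221-3p from 0.913 to 2.18. Other pairs moved in the opposite sense. let-7e-5p to miR-99b-5p, whose hairpins share a cluster, was 0.858, 1.004 and 1.06 in FA and 0.320, 0.358 and 0.588 after 2 ppm O3. miR-125a-5p to miR-99b-5p, of the same cluster (chromosome 17, 17967152 to 17967851 for these hairpins, plus strand, mm9), was 2.84, 4.73 and 4.29 in FA and 1.93, 1.59 and 2.04 after 2 ppm O3. miR-351-5p to miR-322-3p went from a mean of 8.90 to 2.48. The pools of the ratio of the arms of miR-126 overlapped, at 1.74, 6.22 and 3.52 in FA and 3.14, 3.15 and 2.30 after 2 ppm O3.

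**Figure D5:**
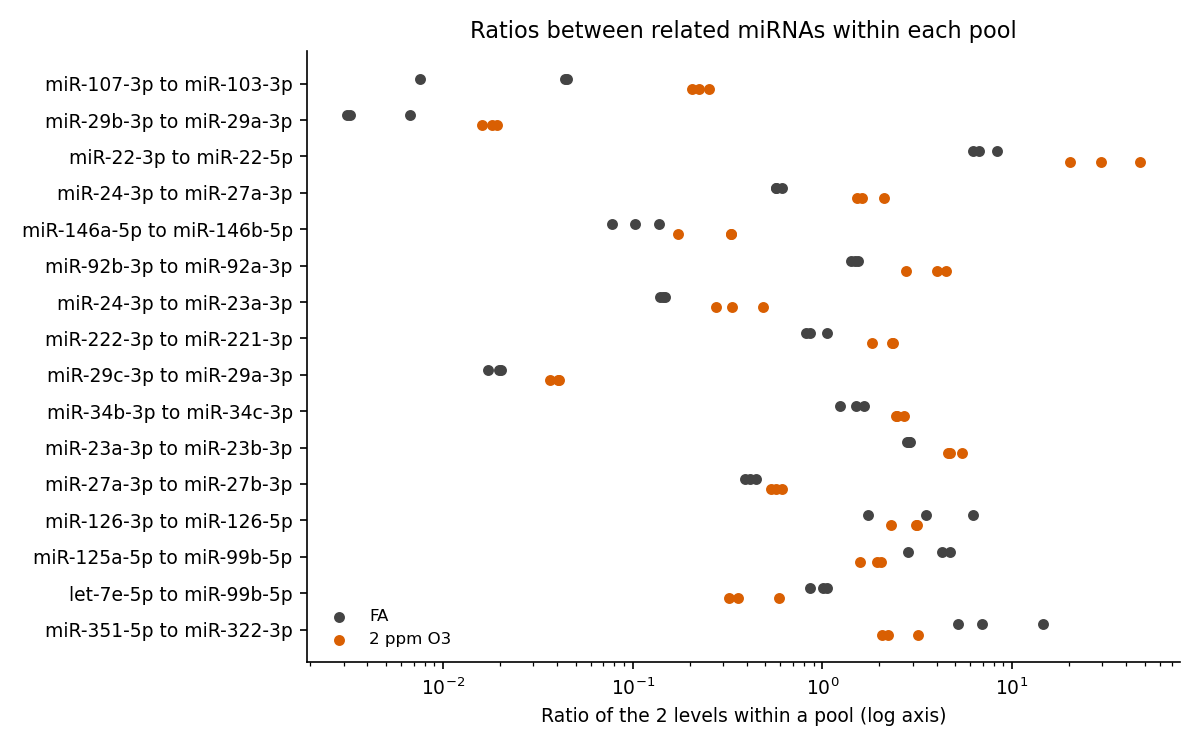
Ratio of the levels of 2 related miRNAs within each of the 3 FA pools (grey) and the 3 pools after 2 ppm O3 (orange), on a log axis, for 16 pairs. The pairs were chosen after the values were seen, and the share over all possible pairs was not computed. The ratios of the exposures do not overlap for 15 pairs, and overlap for miR-126-3p to miR-126-5p.

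Over the whole table, 61 pairs of a 5p and a 3p arm were tested. let-7c-5p and miR-125b-5p, averaged over copies, each enter more than 1 pair. Both arms were called lower for 12 pairs and both higher for 1 on the deposited scale, 1 arm was called for 25 and neither for 23. The 12 include the pairs of let-7a-1-3p and let-7c-2-3p, whose values are the same. No pair had its arms called in opposite directions. The medians did not change steadily with base composition. The 30 miRNAs with a GC content below 40% had a median log2 fold change of -1.30 as deposited, the 78 from 40% to 50% one of -0.89, the 53 from 50% to 60% one of -1.06 and the 25 at 60% or more one of -0.71. Of the last group, 2 were called higher as deposited, miR-2137 and miR-5126. Only 8 of the 13 miRNAs called higher had a sequence and so enter these groups. In the same order, 17 of the 30, 23 of the 78, 20 of the 53 and 6 of the 25 were called lower. The share of all 216 was 33.3%. Of the 72 miRNAs called lower, 8 were at 0 in at least 1 pool after 2 ppm O3, and of the 13 called higher 4 were at 0 in at least 1 FA pool. The other 9 higher and 64 lower miRNAs were above 0 in all 6 pools.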

How the data were processed

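Small RNA of BALF EVs was sequenced in 9 pools. Per the labels and the study's methods, the authors aligned the reads to mm9, and used miRquant 2.0 to quantify miRNAs with their isomiRs. The deposited values are RPMMM, an RPM whose total counts only reads mapped to miRNAs. RPMMM are not counts, so a count model was not used. The depth was estimated from the steps between low values, on which 40.4% to 53.2% of low values of the pools lay within 0.05 reads. The lowest value above 0 of each pool was assumed to stand for about 10 reads.

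From these values, entries with an isomiR suffix were set aside, genomic copies of a mature miRNA were averaged, and miRNAs with a mean above 50 RPMMM over the FA and 2 ppm O3 pools were kept. log2(RPMMM + 1) was modelled over all 9 pools in R 4.3.3 by limma 3.58.1, letting the variance follow the mean, with Benjamini-Hochberg adjustment over the 216 miRNAs. Fold changes are on that scale, which slightly understates the change of low miRNAs above 0 in all pools. Where pools are listed at 0, the fold change rests on the pseudocount and can be overstated. For miR-450a-5p it was -6.19 after scaling, and -0.35 with values below 40 RPMMM set to 40. Pools whose labels give no replicate number were numbered by accession order. On simulated data for 216 miRNAs, 60 of them changed 4-fold, 44 were recovered and 3 unchanged ones called, with none called where nothing was changed. The simulation had no shift in library make-up and no difference in depth between groups. It therefore does not bear on calls that depend on the scale.

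Described by value are the 10 called miRNAs with the largest change in each direction on each scale among those above 0 in all 6 pools, those at 0 in 1 group only, the 5 most abundant of each exposure and members of the family and cell lists. Members and lists were chosen with earlier results of these data known. Summed levels of a family or list take all of its miRNAs in the data, also those not tested. Hairpin positions are of the mm9 annotation (230 of 280 hairpins) and sequences of RefSeq. Values were tabulated in pandas 2.3.3, numpy 2.4.6 and scipy 1.17.1 and drawn in matplotlib 3.10.9, under Python 3.11.15. Alternatives were another pseudocount, other filters, copies, isomiRs, totals and models, and each pool left out. Other small RNAs and other assays of the study were not analysed here.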

Additional observations from a re-analysis of the deposited data

How the results depend on the processing

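The scale was the choice that moved the counts most. As deposited, 85 miRNAs were called, 13 higher and 72 lower. With median-of-ratios scaling there were 36, with 24 higher and 12 lower, and with the total taken without miR-2137, miR-5115, miR-5109, miR-5105 and miR-5102 there were 38, with 26 higher and 12 lower. Under these same alternatives the log2 fold changes changed sign for miR-21-5p (0.12 without the 5 hairpins and 0.10 with median-of-ratios scaling), miR-30a-5p (0.24 and 0.22) and miR-30d-5p (0.12 and 0.10). With a minimum mean of 200 RPMMM, 8 miRNAs were called higher as deposited, among 140 tested. After median-of-ratios scaling, 6 miRNAs were called lower with only the 6 pools in the model and 7 without a trend of the variance. The cause was not tested.

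With each of the 6 pools left out in turn, 75 to 95 miRNAs were called as deposited (10 to 15 higher and 64 to 83 lower) and 27 to 38 after scaling (20 to 28 higher and 6 to 15 lower). The lowest counts of lower calls after scaling were 6 without FA pool 2 and 7 without FA pool 3, and without FA pool 3 the scaled value of miR-30d-5p was -0.0332. As deposited, 10 of the 13 higher and 55 of the 72 lower calls were kept with each pool left out, and after scaling 17 of 24 and 5 of 12. Of the 31 miRNAs named by size or level, 20 had the same call under all 17 alternatives as deposited and 19 under all 15 after scaling. A floor of 40 RPMMM was added after the data were seen. No paired analysis was run, since the pools of the exposures held different mice. The shallower 2 ppm O3 pools limit what can be said of miRNAs below about 40 RPMMM.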
